A study of Caenorhabditis elegans with 2 samples.

Results

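The microRNA (miRNA) genes of Caenorhabditis elegans were examined for peaks of LIR-3, a zinc finger protein related to LIN-26, in whole larvae. All nuclear genes annotated with the biotype miRNA in Ensembl release 115 (WBcel235, the build that UCSC calls ce11) were taken, which gave 261 of 46890 nuclear genes. Of these, 106 had their hairpin wholly inside the span of a protein-coding gene (hosted), 74 on the host strand and 32 on the opposite strand. The other 155 did not (intergenic). The deposited data are peak lists of chromatin immunoprecipitation followed by sequencing (ChIP-seq) from 1 group with 2 biological replicates. The worms were hermaphrodite L1 larvae of strain OP312, genotype unc-119(ed3) III; wgIs312, a stable transgenic line that makes LIR-3 with a GFP-FLAG tag at its C terminus. They were collected 6 h after synchronization from L1 larvae that had been starved after bleaching. The chromatin was sonicated, and an anti-GFP antibody was used for the precipitation. Both replicates carry the unc-119(ed3) allele and the transgene, the tagged protein was read in place of the native one, and whole larvae give no cell type. No control sample was analysed here, so the main counts are read beside the same counts over other genes of these lists.

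A miRNA gene is transcribed as a longer primary transcript, from its own promoter or from that of the gene that hosts it. The hairpin is cut out in the nucleus by the Drosha and Pasha complex and trimmed by Dicer, and 1 strand is loaded into an Argonaute protein, where its seed, the bases from position 2 to 8, pairs with target messages. Families of C. elegans miRNAs that share a seed often act together, as the mir-51 family does in embryos. The annotated 5' end of a miRNA gene is usually that of its hairpin and not the start of the primary transcript, so a promoter can lie well upstream of it.

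The miRNAs of the mir-51 family were the seed group with the most genes at a LIR-3 summit of the authors' thresholded set (IDR set) within 500 bp. The count was 4 of 6, against 4.33% of all nuclear genes, and mir-54 and mir-55 share their summit. The group was singled out by this count in these same data, and it was not tested. The mature sequences are shown because the shared seed defines the group. All 6 genes carry the seed ACCCGUA, on the 5p arm of mir-51, mir-52 and mir-53 (chromosome IV) and on the 3p arm of mir-54, mir-55 and mir-56 (chromosome X). The mature sequences of mir-80, mir-58.1 and mir-90 are given beside them, since these also had a summit. Sequences were read from the RefSeq genome and annotation of WBcel235, 5' to 3', with the seed in capitals.
mir-51-5p: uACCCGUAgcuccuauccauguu
mir-52-5p: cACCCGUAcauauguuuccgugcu
mir-53-5p: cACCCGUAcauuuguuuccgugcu
mir-54-3p: uACCCGUAaucuucauaauccgag
mir-55-3p: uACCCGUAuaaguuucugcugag
mir-56-3p: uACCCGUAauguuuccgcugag
mir-80-3p: uGAGAUCAuuaguugaaagccga
mir-58.1-3p: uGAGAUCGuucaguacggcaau
mir-90-3p: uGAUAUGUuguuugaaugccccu
The seeds of mir-80 and mir-58.1, both of the bantam group, share their first 6 letters. The seed of mir-80 occurs in 6 annotated genes, of which mir-80 alone had an IDR summit within 500 bp. The seed of mir-90 occurs in 3 genes, mir-50, mir-62 and mir-90, and again only mir-90 had such a summit.

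The stretches around 7 of the 10 summits with no protein-coding, tRNA, snoRNA or snRNA 5' end within 500 bp are shown next. They are the 3 summits of the mir-51 family, those upstream of mir-80 and mir-90, whose mature sequences are given above, that at mir-5595, the strongest of the others, and that at mir-4806, where both B box matches lie. Each window spans 100 bp on either side of the summit on ce11 and is written 5' to 3' on the strand of the miRNA gene, and capitals mark the motifs searched. The window for mir-52 is chrIV:14033790-14033990 (plus strand), for mir-80 chrIII:8865551-8865751 (minus strand), for mir-54 and mir-55 chrX:13145299-13145499 (minus strand), for mir-90 chrIII:8874271-8874471 (minus strand), for mir-53 chrIV:11027833-11028033 (minus strand), for mir-5595 chrII:14399681-14399881 (minus strand) and for mir-4806 chrII:12346724-12346924 (minus strand).
mir-52: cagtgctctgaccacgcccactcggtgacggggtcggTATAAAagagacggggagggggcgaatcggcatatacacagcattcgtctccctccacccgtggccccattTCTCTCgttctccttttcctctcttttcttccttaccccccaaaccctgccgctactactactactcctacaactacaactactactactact
mir-80: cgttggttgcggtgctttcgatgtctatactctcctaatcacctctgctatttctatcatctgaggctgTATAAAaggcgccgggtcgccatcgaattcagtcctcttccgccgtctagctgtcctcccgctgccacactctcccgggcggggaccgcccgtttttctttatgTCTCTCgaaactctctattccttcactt
mir-54 and mir-55: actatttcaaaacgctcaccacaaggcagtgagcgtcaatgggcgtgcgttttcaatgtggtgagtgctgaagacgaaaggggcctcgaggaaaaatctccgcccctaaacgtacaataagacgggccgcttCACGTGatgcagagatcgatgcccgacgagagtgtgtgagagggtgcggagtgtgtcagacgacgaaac
mir-90: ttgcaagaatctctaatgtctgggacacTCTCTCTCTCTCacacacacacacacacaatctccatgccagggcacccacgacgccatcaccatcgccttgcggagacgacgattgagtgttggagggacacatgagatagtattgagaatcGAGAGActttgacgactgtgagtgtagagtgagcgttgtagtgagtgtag
mir-53: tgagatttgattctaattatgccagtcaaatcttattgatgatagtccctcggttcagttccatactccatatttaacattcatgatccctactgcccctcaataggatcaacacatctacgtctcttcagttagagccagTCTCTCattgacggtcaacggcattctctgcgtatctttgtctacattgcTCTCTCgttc
mir-5595: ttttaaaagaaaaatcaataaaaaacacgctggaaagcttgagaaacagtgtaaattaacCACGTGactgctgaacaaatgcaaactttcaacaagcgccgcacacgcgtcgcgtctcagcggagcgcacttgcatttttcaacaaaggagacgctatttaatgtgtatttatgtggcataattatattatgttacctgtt
mir-4806: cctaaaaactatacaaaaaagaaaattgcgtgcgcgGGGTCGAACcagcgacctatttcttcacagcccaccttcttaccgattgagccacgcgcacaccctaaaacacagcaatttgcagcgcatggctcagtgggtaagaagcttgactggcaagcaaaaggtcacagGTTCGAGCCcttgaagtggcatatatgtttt

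In these windows TATAAA, the core of a TATA box, was present at mir-52 and mir-80, in both on the strand of the hairpin. It began 181 bp upstream of the mir-52 hairpin and 63 bp upstream of the summit, and 315 bp upstream of the mir-80 hairpin and 31 bp upstream of the summit. Both strands were searched for 6 motifs in the windows of all 13 summits at miRNA genes and of all 1894 nuclear IDR summits. TATAAA was in 2 of 13 windows (15.4%), against 16.8% of all windows. GAGAGA, the GAGA repeat, was in 7 of 13 (53.8%), against 40.6% of all, and the run at mir-90 holds 4 overlapping copies. The E-box CACGTG was in 2 of 13 (15.4%), at mir-54 with mir-55 and at mir-5595, against 10.1% of all. AGATAA, the GATA site, was in 2 of 13 (15.4%), against 10.3%, and CCAAT was in 1 of 13 (7.69%), against 30.0%. GTTCGANNC, the B box that transcription factor IIIC binds inside tRNA genes, was in 1 of 13 (7.69%), with both of its copies at mir-4806 on opposite strands, against 5.17%. In the 13 windows no matches of different motifs overlapped. The 13 windows had a median GC content of 48.3% (lowest 37.3%, highest 53.7%), against 41.8% over all nuclear IDR windows. Every run of 31 bases in the 13 windows occurs once in the nuclear genome.

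LIR-3 summits lay at few miRNA genes. The authors' IDR set is named for the irreproducible discovery rate, a measure of reproducibility between replicates. A gene was counted when a summit of that set lay within 500 bp of its 5' end. The 1894 strongest nuclear pooled regions gave the same counts as the 1894 nuclear IDR peaks, so the set acts here as a cut on pooled score. Membership does not show that a peak is strong in each replicate: the region at mir-71 has rank 5339 in replicate 1. Of the 261 miRNA genes, 14 had one (5.36%, exact 95% interval 2.96 to 8.84%), against 4.33% of all nuclear genes. Over all nuclear genes other than the many piRNA genes, which are short and lie in dense clusters, the share was 6.17%, and over protein-coding genes it was 6.09%. The share of miRNA genes lay between these backgrounds, and its interval holds all of them. The 14 genes are mir-2, mir-52, mir-53, mir-54, mir-55, mir-58.1, mir-71, mir-80, mir-90, mir-1824, mir-4806, mir-4932, mir-5549 and mir-5595. They share 13 distinct summits, since 1 summit serves mir-54 and mir-55.

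Of the miRNA genes inside a protein-coding gene, 9 of 106 had an IDR summit (8.49%, interval 3.96 to 15.5%), against 5 of 155 intergenic miRNA genes (3.23%, 1.06 to 7.37%). On the strand of the host the count was 5 of 74 (6.76%, 2.23 to 15.1%), and on the opposite strand 4 of 32 (12.5%, 3.51 to 29.0%). The intervals overlap and the difference was not tested. With same-strand hosts only, the shares were 5 of 74 hosted genes (6.76%) and 9 of the 187 others (4.81%). Within 250 bp the order turned, with 1 of 106 hosted genes (0.943%, 0.0239 to 5.14%) and 4 of 155 intergenic genes (2.58%, 0.708 to 6.48%). These intervals overlap too, and no share over all nuclear genes was computed at 250 bp. By chromosome, a summit lay at 4 of 33 miRNA genes on I (12.1%, interval 3.4 to 28.2%), against 8.06% of all nuclear genes there. It lay at 2 of 49 on II (4.08%, 0.498 to 14.0%), against 6.75%, and at 3 of 27 on III (11.1%, 2.35 to 29.2%), against 8.73%. On IV, where the piRNA genes are clustered, it lay at 3 of 50 (6.0%, 1.25 to 16.5%), against 1.78%. None of 28 on V had one, which allows a share of up to 12.3%, against 3.91%. Chromosome X carried the most miRNA genes, and 2 of 74 (2.7%, 0.329 to 9.42%) had a summit, against 5.68%. On each of the 6 chromosomes the background lay inside the interval of the miRNA genes.

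**Figure D1:**
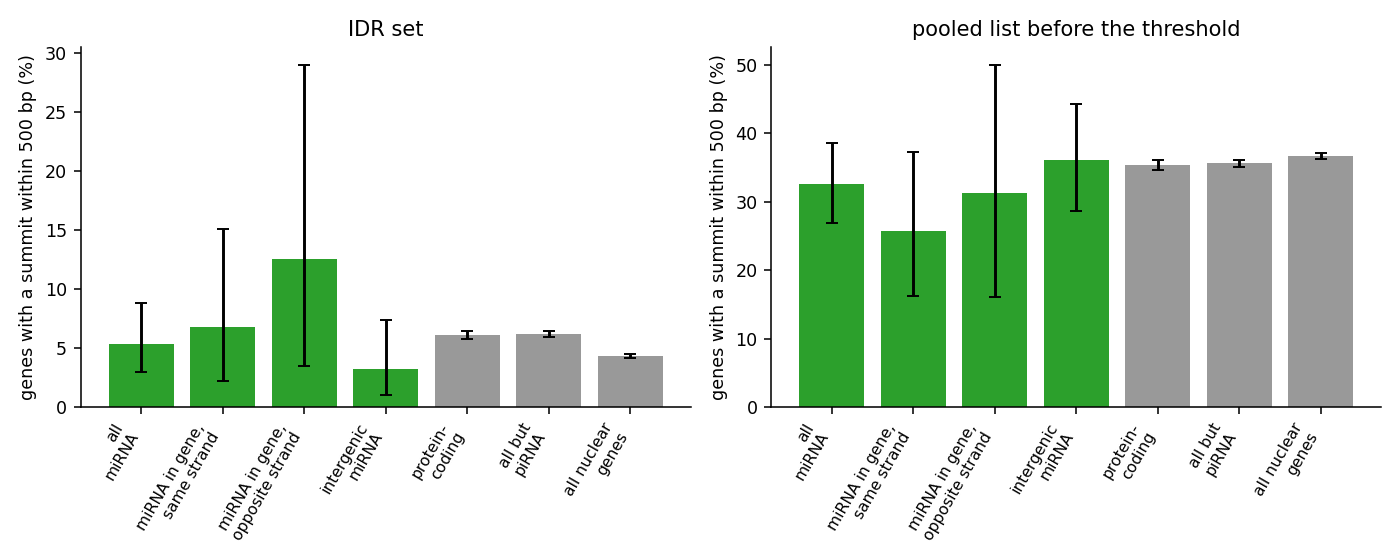
Percent of genes with a summit within 500 bp of the 5' end in the IDR set (left panel) and in the pooled list before the threshold (right panel), for all miRNA genes and their classes by position (green) and for protein-coding genes, nuclear genes other than piRNA genes and all nuclear genes (grey). Bars are shares and error bars exact 95% intervals over genes, and the wide intervals of the miRNA classes overlap each other and the grey bars in the IDR panel.

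In the lists before the threshold, which hold background regions by design, miRNA genes stood close to the background. A pooled summit lay within 500 bp of 85 of 261 miRNA genes (32.6%), against 36.7% of all nuclear genes and 35.6% of those other than piRNA genes. Here the order of the classes was the other way round, with 29 of 106 hosted genes (27.4%) and 56 of 155 intergenic genes (36.1%), and the intervals again overlapped. The replicate 1 list had a summit at 101 miRNA genes (38.7%), against 36.1% of all nuclear genes. The replicate 2 list had one at 89 (34.1%), against 35.7%. Both replicate lists had one at 54 (20.7%), against 19.6%. Only 1 of them had one at 82, and 117 miRNA genes had none in any of the lists. No background over all nuclear genes was made for the counts of 82 and 117, so they are not read as a trait of miRNA genes.

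The order of the classes changed with the strength of the regions used. Among the 1000 strongest pooled regions, a summit lay at 5 hosted genes (4.72%) and 3 intergenic genes (1.94%), against 2.53% of all nuclear genes. Among the 3000 strongest it lay at 12 hosted genes (11.3%) and 12 intergenic genes (7.74%), against 6.15%. Among the 10000 strongest it lay at 15 hosted genes (14.2%) and 29 intergenic genes (18.7%), against 14.6%. Over nuclear genes other than piRNA genes the share was 3.7% among the 1000 strongest, 8.45% among the 3000 and 16.9% among the 10000. From the 10000 strongest regions on, the intergenic share was the higher one. The differences between the classes were not tested.

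**Figure D2:**
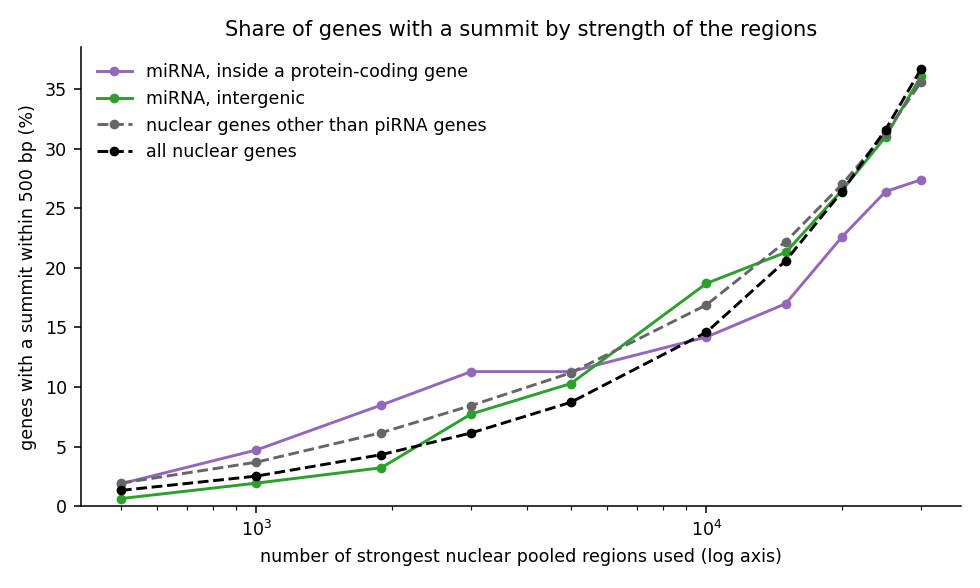
Percent of genes with a pooled summit within 500 bp (vertical axis) when only the strongest nuclear pooled regions are used (horizontal axis, number of regions, log scale), for miRNA genes inside a protein-coding gene, intergenic miRNA genes, nuclear genes other than piRNA genes and all nuclear genes. The hosted line runs above the intergenic one among the strongest 1894 regions (8.49% and 3.23%) and below it among all 29984 (27.4% and 36.1%).

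The IDR summits at miRNA genes were of ordinary strength. The authors' score, a signal value with no unit given, ranged over the 13 summits from 106 to 598 with a median of 171, against a median of 159 and a highest value of 2614 over all 1894 nuclear IDR peaks. Of the 13, 7 were in the stronger 947 of those peaks. All 13 lay in a region of both replicate lists, 10 among the 1894 strongest regions of replicate 1, 11 among those of replicate 2 and 8 among those of both. Scores rank peaks within a list only, so the replicates are compared by rank.

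**Figure D3:**
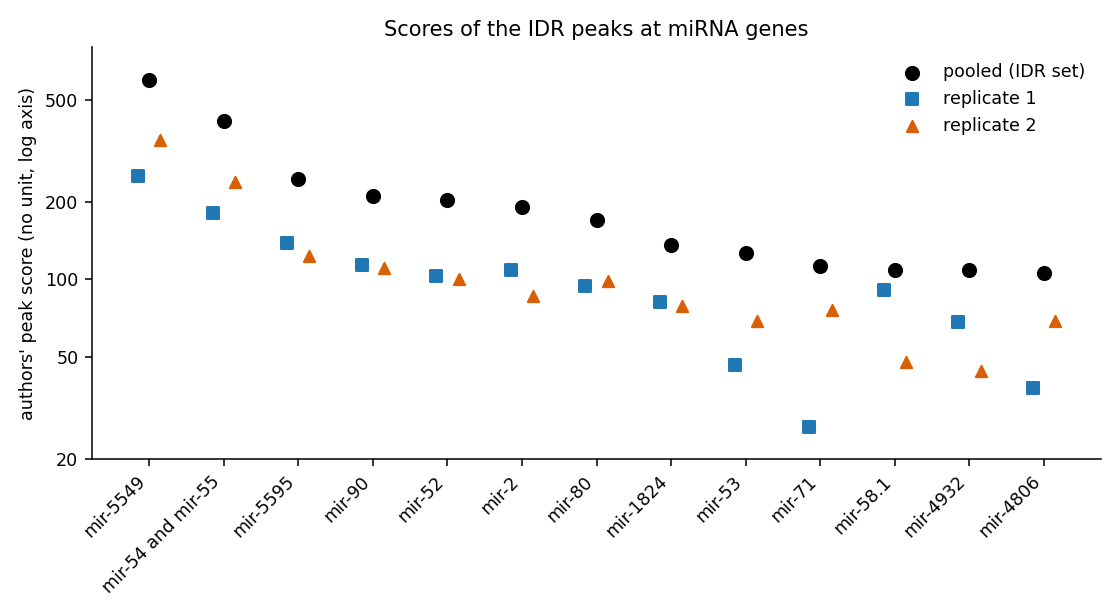
The authors' score (vertical axis, no unit, log scale) of the 13 IDR peaks at miRNA genes, in the pooled data and in the region of each replicate list that holds the summit, ordered by pooled score. The peak at mir-5549 is highest (598 in the pooled data) and that at mir-4806 lowest (106), and at mir-71 the region of replicate 1 ranks far lower in its list (5339) than that of replicate 2 (1179).

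Most summits lay on the upstream side of the hairpin. Of the 14 genes, 11 had the summit upstream, with a median offset of -263 bp over the 14, and mir-5549 alone had it within 100 bp of the 5' end. Over all 2029 nuclear genes with an IDR summit, it lay upstream at 74.4%. At 10 of the 13 summits no 5' end of a protein-coding, tRNA, snoRNA or snRNA gene lay within 500 bp. Such a 5' end was present at 3 of 13 (23.1%, interval 5.04 to 53.8%), against 1122 of all 1894 nuclear IDR summits (59.2%). The rule that picked these summits, nearness to a miRNA gene, also fixes where they lie. How far miRNA genes lie from such 5' ends was not measured, so the shares are not like for like. The difference was not tested. An ncRNA 5' end lay within 500 bp of the summits at mir-2, mir-52, mir-54 with mir-55, mir-58.1, mir-71, mir-80 and mir-90.

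**Figure D4:**
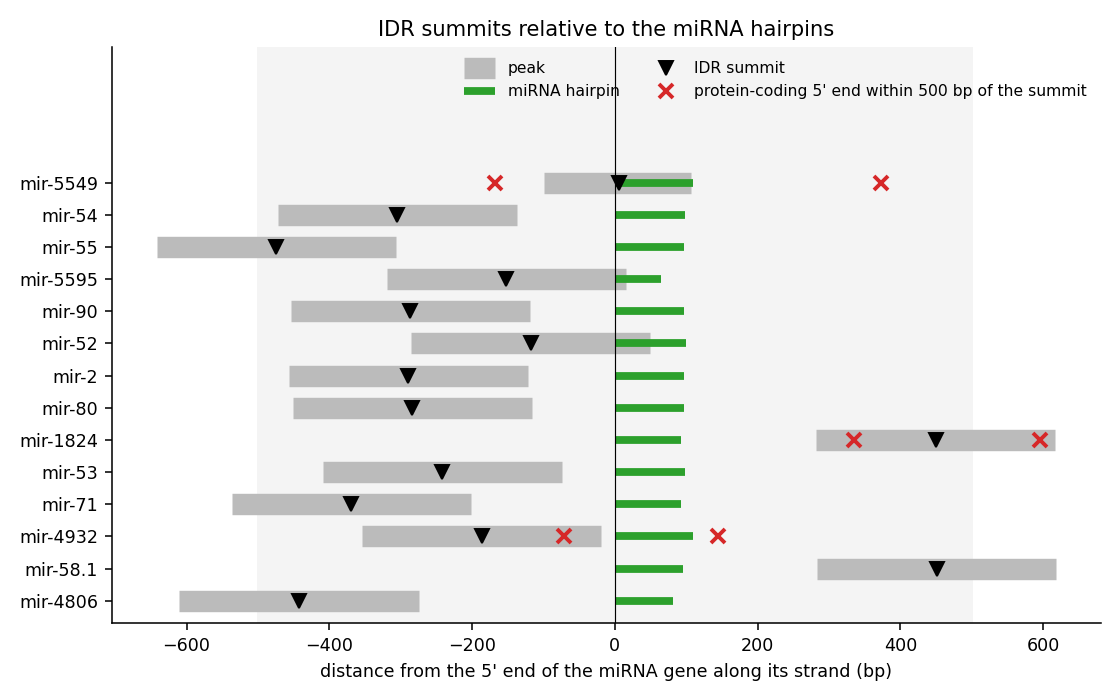
Position of the IDR summit (black triangle), the peak (grey bar) and protein-coding 5' ends within 500 bp of the summit (red crosses) relative to the 5' end of each miRNA gene with a summit (horizontal axis, bp along the strand of the gene, 0 at the 5' end, hairpin in green). The shaded band is the window of 500 bp on each side, and 11 of 14 summits lie left of 0. Crosses appear at mir-5549, mir-1824 and mir-4932 only, and 5' ends of ncRNA genes are not drawn.

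The strongest peak was at mir-5549 (chrIII:6971976-6972085, minus strand), an intergenic miRNA gene at a promoter shared by coding genes. Its summit, 6 bp inside the hairpin, had a pooled score of 598 (rank 138 of the nuclear pooled regions), 253 in the first replicate (rank 176) and 349 in replicate 2 (rank 121). It also lay 174 bp upstream of rfc-4, a subunit of the clamp loader of DNA replication, and 367 bp upstream of eef-1A.1, a translation elongation factor. Peaks of the miRNA gene and of its neighbours cannot be told apart here. mir-4932 (chromosome I) was in the same position. Its summit, 186 bp upstream, scored 109 (rank 1476), with 68.2 in replicate 1 (rank 1200) and 43.9 in replicate 2 (rank 2463). It lay 115 bp downstream of the 5' end of smn-1, the worm survival motor neuron gene, and 331 bp upstream of klp-16, a kinesin. The summit of mir-1824 (chromosome I), 450 bp downstream of its 5' end, scored 136 (rank 1135), with 81.6 in replicate 1 (rank 958) and 78.5 in replicate 2 (rank 1147). It lay between Y87G2A.18 and Y87G2A.1, upstream of both by 115 and 145 bp.

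Of the 14 genes, 11 had a summit with no such promoter within 500 bp, and the mir-51 family supplied 4 of them. The shared summit of mir-54 and mir-55 (chrX:13144996-13145094 and chrX:13144827-13144924, minus strand) had a pooled score of 412 (rank 258), 181 in replicate 1 (rank 321) and 239 in replicate 2 (rank 244). Summits of both replicates lay 0 and 1 bp from it. It was 305 bp upstream of mir-54 and 475 bp upstream of mir-55, inside F09A5.3 on the opposite strand, 3798 bp from the 5' end of that gene. A short ncRNA gene, F09A5.11, has its 5' end 128 bp from the summit, nearer than either hairpin.

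mir-52 (chrIV:14034008-14034107, plus strand), an intergenic gene, had its summit 118 bp upstream of the hairpin, with a score of 204 (rank 689), 103 in replicate 1 (rank 717) and 100.1 in replicate 2 (rank 856). One further IDR peak with a score of 219 lay 698 bp upstream. The nearest protein-coding 5' end, of Y37A1B.7, was 9890 bp away from the nearer summit, while 4 short ncRNA genes start within 500 bp. Among these, Y37A1B.333 has its 5' end 24 bp from the summit, nearer than mir-52. mir-53 (chrIV:11027593-11027691, minus strand), also intergenic, had a summit 242 bp upstream with a score of 127 (rank 1231). There the replicates stood further apart, with 46.6 in replicate 1 (rank 1915, its summit 101 bp away) and 68.8 in replicate 2 (rank 1341, at the same base).

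The other 2 family members had no summit within 500 bp but lay downstream of the same peaks. mir-56, the last hairpin of the cluster with mir-54 and mir-55, began 612 bp downstream of their shared summit. mir-51 began 1821 bp downstream of the summit at mir-53, with which it shares its strand. From 2000 bp upstream to 500 bp downstream, all 6 family members thus had an IDR summit, against 6.8% of all nuclear genes in that window. The summits were the peaks already given plus the further one at mir-52, so mir-51 and mir-56 added no new peak. The 6 genes are not independent, since hairpins of a cluster share their peak. When each summit went to the nearest 5' end only, mir-53 alone of the family kept its summit.

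In the list for the bantam family, named for a growth-promoting miRNA of Drosophila, 2 of 8 annotated genes had an IDR summit, against 4.33% of all nuclear genes. The list was made by name: it holds mir-2209.2 and mir-2209.3, whose seeds differ from that of mir-80, and leaves out Y73B6A.17, which has that seed and no summit in any list. mir-80 (chrIII:8865270-8865367, minus strand), an intergenic gene whose nearest coding 5' end was 11477 bp from the summit, had it 284 bp upstream. Its score was 171 (rank 865), with 94.4 in replicate 1 (rank 810) and 98.6 in replicate 2 (rank 874), and the ncRNA gene K01F9.6 has its 5' end 383 bp from the summit. mir-58.1 (chrIV:3233254-3233350, plus strand), which Ensembl names mir-58a, lies inside Y67D8A.2 on the same strand, and its summit was 451 bp downstream of the 5' end of the hairpin. The score was 109 (rank 1475), with 91.3 in replicate 1 (rank 853) and 47.8 in replicate 2 (rank 2174), where the summit stood 142 bp away. The 5' end of the ncRNA gene Y67D8A.7 was nearer to the summit, at 186 bp. mir-58.2, mir-81, mir-82 and mir-2209.1 to mir-2209.3 had neither an IDR nor a pooled summit in the window, and mir-1834 was not found in the annotation.

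mir-90 (chrIII:8873987-8874084, minus strand) lies in K01F9.2 on the same strand. Its summit was 287 bp upstream, with a score of 211 (rank 656), 114 in replicate 1 (rank 625) and 111 in replicate 2 (rank 749), and the 5' end of the ncRNA gene K01F9.7 was 411 bp from it. mir-5595 (chrII:14399565-14399629, minus strand) lies on the opposite strand of nurf-1, a chromatin remodelling gene. It had its summit 152 bp upstream, with a score of 247 (rank 534), 139 in replicate 1 (rank 476) and 123 in replicate 2 (rank 640). No other annotated 5' end lay within 500 bp of that summit, in a search that left out piRNA and miRNA genes. mir-4806 (chrII:12346299-12346381, minus strand), inside the Ras-related gene ras-1 on the same strand, had the lowest score, 106 (rank 1524), 443 bp upstream. The replicates gave 37.9 in replicate 1 (rank 2591) and 69.1 in replicate 2 (rank 1337).

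mir-2 and mir-71 (chromosome I) both lie in ppfr-1 on the same strand, and each had its own summit. At mir-2 (chrI:9372768-9372865, minus strand) it lay 290 bp upstream with a score of 191 (rank 750), 109 in replicate 1 (rank 663) and 86.6 in replicate 2 (rank 1029). An ncRNA gene, F16A11.5, has its 5' end nearer to that summit, at 216 bp. mir-71 (chrI:9379927-9380020, minus strand), a miRNA needed for survival of starvation in L1 arrest, had its summit 370 bp upstream with a score of 113 (rank 1407). The replicates differed most here, with 26.6 in replicate 1 (rank 5339) and 76.4 in replicate 2 (rank 1179). An ncRNA gene, F16A11.8, has its 5' end 36 bp from the summit, far nearer than mir-71. A further IDR peak with a score of 483 lay 1451 bp upstream of mir-71, also with no coding 5' end within 500 bp. The 5' end of ppfr-1 itself had a pooled region of score 79.7 and no IDR summit.

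The remaining lists of miRNA genes with known roles are too short to be told from the background, which is 4.33% of all nuclear genes for an IDR summit and 36.7% for a pooled one. The mir-51 and bantam lists are short too, were chosen with earlier results known, and were not tested either. Of 9 miRNAs in the heterochronic list, named for the timing of the larval stages, none had an IDR summit within 500 bp. A pooled summit lay at 5 of them, with scores from 26.8 at mir-795 to 44.3 at mir-793. Pooled summits outside the IDR set lie below its lowest score, 89.9, by construction. These 5 include mir-793, mir-794 and mir-795, whose role in timing was not examined here. lin-4, which represses lin-14 in early larvae, had only a region of score 16.6 in replicate 2 (rank 22115), and let-7, mir-237 and mir-241 had none in any list. lsy-6, which sets the asymmetry of the ASE taste neurons, had a region of score 16.1 in replicate 2 only (rank 23626). Of the 8 genes of the mir-35 family, which act in embryos, none had an IDR summit and 4 had a pooled one with scores from 41.5 to 46.1. Of 14 miRNAs listed for tissues or stress, mir-71 alone had an IDR summit, and 8 had a pooled one. Among these, mir-1 of muscle had 74.2 (rank 2527), with 20.5 in replicate 1 (rank 10241) and 57.5 in replicate 2 (rank 1702), while mir-124 of sensory neurons and mir-235, which acts in blast cell quiescence, had none in the pooled list.

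**Figure D5:**
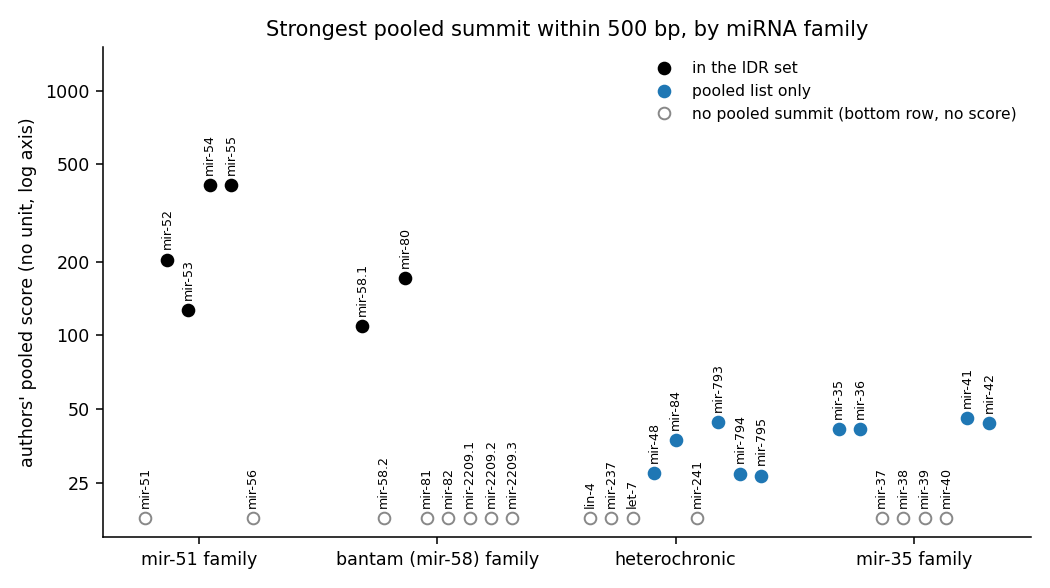
The authors' pooled score (vertical axis, no unit, log scale) of the strongest pooled summit within 500 bp of each gene of the mir-51, bantam, heterochronic and mir-35 lists. Filled black points are in the IDR set, blue points in the pooled list only, and open points in the bottom row mark genes with no pooled summit and no score; black points appear at mir-52, mir-53, mir-54, mir-55, mir-58.1 and mir-80.

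Since promoters of primary transcripts can lie upstream of the hairpin, summits were also counted from 2000 bp upstream to 500 bp downstream. In that window 28 of 261 miRNA genes had an IDR summit (10.7%, interval 7.25 to 15.1%), against 6.8% of all nuclear genes and 9.25% of those other than piRNA genes. The 14 added genes were 5 hosted and 9 intergenic ones, which gave 14 of 106 hosted genes (13.2%) and 14 of 155 intergenic genes (9.03%). mir-34, a miRNA of the stress response, was added by a summit 1794 bp upstream with a score of 264 and no coding 5' end within 500 bp. let-7 was added by a summit 1871 bp upstream with a score of 239.7, which lay 111 bp upstream of the coding gene C05G5.2. mir-2221 was added by a summit of score 401 at 1254 bp and mir-2211 by one of 205 at 1439 bp, both away from coding 5' ends. The hosted genes mir-353, mir-1828, mir-2214 and mir-2216 were added by the summit at the promoter of their host. Intergenic mir-356.1, mir-59 and mir-800 were added by summits upstream of other coding genes, coq-5 (247 bp), znf-207 (87 bp) and ife-2 (237 bp). For mir-51 and mir-56 the summits were those already counted at mir-53 and at mir-54 with mir-55. mir-238 was added by a summit of score 94.9 at 1020 bp, with no coding 5' end within 500 bp.

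Hosts were looked at in their own right, because a miRNA on the strand of its host can share the host's promoter. The 74 same-strand miRNA genes lie in 67 hosts, of which 8 had an IDR summit within 500 bp of their own 5' end (11.9%, interval 5.3 to 22.2%), against the 6.09% of all protein-coding genes given above. These 8 hosts hold 9 miRNA genes, none of which had an IDR summit at its own 5' end, against 6.76% of all same-strand miRNA genes, a share at which 9 genes could well hold none. They are Y56A3A.7 (score 1697, rank 7), host of mir-86 and mir-8211, gmps-1 (578), an enzyme of GMP synthesis that hosts mir-2216, and idhg-1 (199), an isocitrate dehydrogenase subunit that hosts mir-4813. The summit at Y56A3A.7 lay 487 bp downstream of its 5' end, near the edge of the window. That at gmps-1 lay 238 bp upstream of it and equally of its neighbour cap-2. pash-1 (195), the Pasha partner of Drosha in cutting hairpins, hosts mir-1828. rpl-24.1 (188), a ribosomal protein gene, hosts mir-353, F09A5.3 (152) hosts F09A5.15, B0361.11 (137) hosts mir-2214, and flcn-1 (96.3), the folliculin gene, hosts mir-8192. The hosts of mir-2, mir-71, mir-90, mir-58.1 and mir-4806 had no IDR summit at their own 5' end.

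Hairpins of 1 transcript often lie close together. With 5' ends at most 1000 bp apart on the same strand, 52 of the miRNA genes fell into 18 clusters, of which 1, that of mir-54, mir-55 and mir-56, had an IDR summit in the window and 6 had a pooled one. No background of clusters was made, and the shares of single genes given above are 4.33% and 36.7%. The cluster from mir-35 to mir-41 and that of mir-42 to mir-44 had pooled summits at 3 genes each. Neighbours shared them: mir-42, mir-43 and mir-44 had the same region (43.8, rank 8939), as did mir-35 and mir-36 (41.5, rank 10421).

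Below the IDR set, 71 miRNA genes had a pooled summit. Their scores are under the lowest score of the set, 89.9, by construction, and the highest were just under it. mir-4920, in sph-1 on the same strand, had 89.3 (rank 1912), with 23.3 in replicate 1 (rank 7421) and 43.0 in replicate 2 (rank 2542). Its own 5' end is 86 bp from that of sph-1, which has the same region. mir-5551 had 89.0, mir-79 had 87.9, mir-238 had 84.3, mir-2213 had 80.4, mir-2216 had 79.6, mir-8196.1 had 77.8, mir-8209 had 76.8, mir-2214 had 74.9 and mir-1 had 74.2. In several of these the replicates were far apart, as at mir-238, with rank 1584 in replicate 1 and rank 11852 in replicate 2, and at mir-2216, with rank 27933 in replicate 1 and rank 1734 in replicate 2. mir-8196.1 had a summit in the window in replicate 2 only. mir-4929, chosen after its values were seen, had no pooled summit in the window but was high in both replicates, with 61.7 in replicate 1 (rank 1350) and 93.7 in replicate 2 (rank 929). Over all 85 miRNA genes with a pooled summit the median pooled score was 42.8, against 38.1 over all nuclear genes with one.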

How the data were processed

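ChIP-seq peak lists of 2 replicates and of both pooled were used as deposited on ce11. Per the deposited file descriptions, the authors called peaks together with background regions for each replicate and the pool and derived the IDR set from them. The IDR threshold, peak caller and aligner were not given in the sources used here. The score is the authors' signal value, with no unit, and was used only to rank regions within a list. The deposited −log10 q-values are the authors' and were not used for ranking, since they reach a ceiling. Lists on ce10 were not used. Read depth is unknown. All value columns used were matched to a sample or to the pool.

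A gene was counted when a summit lay within 500 bp of its 5' end in Ensembl release 115. All 261 miRNA genes matched a RefSeq symbol through the gene ID, and 260 had a mature sequence. A host is a protein-coding gene whose span holds the whole hairpin, and 7 miRNA genes have a span longer than their hairpin. Shares carry exact Clopper-Pearson 95% intervals, which cover counting error only: genes are not replicates and can share a summit. With 1 group there was no comparison between conditions, and no test was run. Counting was tested on simulated data. Genes named are those with an IDR summit, the 10 further ones with the highest pooled scores, the members of the lists, and hosts with a summit, plus added genes of the wider window, chosen after their values were seen. The members and lists were chosen with earlier results of these data known. Python 3.11.15, numpy 2.4.6, pandas 2.3.3, scipy 1.17.1 and matplotlib 3.10.9 were used.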

Additional observations from a re-analysis of the deposited data

How the results depend on the processing

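Of 55 alternative counts over 7 results, 28 stayed within 1.5 times the count reported and 27 did not. The 14 miRNA genes with an IDR summit became 5 within 250 bp, 28 from 2000 bp upstream to 500 bp downstream, 8 with the stronger 947 peaks only and 6 when each summit went to the nearest 5' end only. The 13 distinct summits became 5, 28, 7 and 6 in that order of settings. The 5 intergenic genes became 14 in the wider upstream window, 3 with the stronger peaks, 3 with the nearest 5' end only, 3 without summits near coding or small RNA genes and 9 with same-strand hosts only. The 9 hosted genes became 1 within 250 bp, 14 within 1000 bp, 14 in the wider upstream window, 5 with the stronger peaks, 3 with the nearest 5' end only and 5 with same-strand hosts only. The 85 genes with a pooled summit became 38 within 250 bp, 129 within 1000 bp, 44 with the 10000 strongest regions and 28 with the 5000 strongest. The 54 genes with a summit in both replicate lists became 20, 94, 29 and 20. With the 10000 and 5000 strongest pooled regions, the shares of miRNA genes were 16.9% and 10.7%, against 14.6% and 8.73% of all nuclear genes. Over nuclear genes other than piRNA genes they were 16.9% and 11.2%. No background was made for the windows of 250 and 1000 bp. The counts follow from the width of the window and the number of regions by construction. From the 1894 strongest regions of 1 replicate list, 16 genes were counted without replicate 1 and 14 without replicate 2. Of the 14, 12 and 11 remained, and 9 remained with either, so that mir-53, mir-58.1, mir-71, mir-4806 and mir-4932 each rest on 1 replicate at that limit. Counting from the hairpin 5' end, chosen after seeing the data, gave 14 and 86 genes. No paired analysis was possible because there is 1 group. Depth is unknown, so a gene with no summit cannot be told from one below detection.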
